A study of Mus musculus with 12 samples.

Results

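The 6 arrays described here held granule cell progenitors that carried SmoM2, an activated Smoothened, and asked which genes still differed between the hemispheres and the vermis of the cerebellum when the hedgehog signal was strong in both. They were chosen by their titles from 12 arrays in the series, and 3 came from the hemispheres (the lateral lobes) and 3 from the vermis (the midline). All SmoM2 mice had the genotype Atoh1-CreER/+; R26LSL-SmoM2-YFP and were of a mixed background with C57BL/6 and Swiss Webster. A dose of 200 µg of tamoxifen per g at postnatal day 2 switched the allele on, and cells were taken at postnatal day 8 on a Percoll gradient, with 5 mice in each pool. The other 6 arrays, from wild type mice of that age, background and isolation (3 hemisphere, 3 vermis), served as the comparison, and the sources used here do not say if those mice had tamoxifen. Cre under Atoh1 control acts in the granule lineage and in other cells with Atoh1, the sources used here do not say what share of cells recombined, and each array reads an average over a pool.

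Granule cell progenitors arise from the rhombic lip, divide in the outer layer of the cerebellum under Sonic hedgehog from Purkinje cells, and then migrate inwards as granule neurons. Hedgehog ligand relieves Smoothened from inhibition by the receptor Ptch1, and Smoothened then activates Gli factors that drive genes such as Gli1, Ptch1 and Hhip. SmoM2 signals without ligand, and progenitors with it can form medulloblastoma. The cerebellum is also patterned along its anterior-posterior and medial-lateral axes by transcription factors such as Engrailed, Otx2 and the COUP-TF nuclear receptors, and by signals such as Fgf8 from the isthmus.

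To let the regulatory sequence of the main genes be read beside their values, the 250 bases in front of the gene start are shown for 5 of them, from RefSeq on GRCm38.p6 and in the direction of the gene. They are the 3 patterning factors and the receptor that passed in both genotypes, and Dbx1, which passed in SmoM2 and had a difference near 0 in wild type. Capitals mark matches on either strand to TAATTA, a core that many homeodomain factors read, or to TAATCC, a core that Otx factors read.

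En1, chr1:120602237-120602486, plus strand: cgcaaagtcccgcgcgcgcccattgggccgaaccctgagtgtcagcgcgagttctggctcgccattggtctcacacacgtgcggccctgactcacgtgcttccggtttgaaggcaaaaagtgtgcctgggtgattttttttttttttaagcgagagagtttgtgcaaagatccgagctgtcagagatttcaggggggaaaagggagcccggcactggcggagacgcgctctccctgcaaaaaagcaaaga

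Nr2f2, chr7:70366747-70366996, minus strand: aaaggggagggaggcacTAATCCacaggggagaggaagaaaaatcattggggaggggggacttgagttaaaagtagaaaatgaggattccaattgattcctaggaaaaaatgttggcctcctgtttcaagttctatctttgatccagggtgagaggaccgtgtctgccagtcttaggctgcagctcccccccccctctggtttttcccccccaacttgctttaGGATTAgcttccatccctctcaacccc

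Otx2, chr14:48667645-48667894, minus strand: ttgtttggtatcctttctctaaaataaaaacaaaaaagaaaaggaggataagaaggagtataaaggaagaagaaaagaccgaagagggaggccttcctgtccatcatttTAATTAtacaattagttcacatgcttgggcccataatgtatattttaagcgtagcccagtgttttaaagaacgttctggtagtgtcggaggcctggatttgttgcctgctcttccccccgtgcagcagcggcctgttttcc

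Epha3, chr16:63864176-63864425, minus strand: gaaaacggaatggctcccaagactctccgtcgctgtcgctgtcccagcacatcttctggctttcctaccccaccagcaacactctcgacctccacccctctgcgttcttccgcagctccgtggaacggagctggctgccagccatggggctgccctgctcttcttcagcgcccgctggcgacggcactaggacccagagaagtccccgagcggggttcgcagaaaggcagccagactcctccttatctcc

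Dbx1, chr7:49636836-49637085, minus strand: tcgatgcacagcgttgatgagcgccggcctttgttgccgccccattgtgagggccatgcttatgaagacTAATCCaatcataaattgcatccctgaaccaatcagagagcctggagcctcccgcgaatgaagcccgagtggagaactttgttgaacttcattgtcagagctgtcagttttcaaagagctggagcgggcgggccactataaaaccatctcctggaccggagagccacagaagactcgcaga

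Nr2f2 held TAATCC at 2 places, 233 and 27 bases before its start, the nearer of them on the opposite strand. Otx2 held TAATTA at 141 bases (its table lists 4 starts, of which the one listed at the top is shown), and Dbx1 held TAATCC at 181 bases. En1 and Epha3 held neither. Over 32851 promoter windows of the same length, 4.84% held TAATTA and 6.25% held TAATCC. None of the 5 windows held AGGTCA (a nuclear receptor core, in 14% of windows), GACCACCC (a Gli core, 0.703%) or CAGCTG (an E-box, 13%). A match is a description of the letters, and binding was not measured here. Of the 11 genes that passed, 10 had a window in the table.

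By limma, 11 of 18194 genes differed between SmoM2 hemisphere and SmoM2 vermis at a Benjamini-Hochberg adjusted p under 0.05 (0.0605%), 3 higher in the hemisphere (0.0165%) and 8 lower (0.044%). The engrailed gene En1, Otx2, Dbx1, Fam107a, Hsd11b1, Cmtm7, Dsc2 and BC034090 were lower in the hemisphere. Nr2f2, Epha3 and Insm2 were higher. Of these genes 9 differed at least 2-fold. An unadjusted p under 0.05 was reached by 661 genes (3.63%), and in 1952 genes (10.7%) the 3 arrays of each region did not overlap. With so few arrays such a lack of overlap is frequent even where no difference exists, so by itself it says little of a gene. Few differences thus passed with 3 arrays per region, which does not show that the other genes were equal. The median SD between the pools of a region was 0.11 on the log2 scale. The median 95% interval of a difference reached 0.28 to either side.

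Same-numbered SmoM2 arrays deviated together from their group means (correlations 0.14, 0.27 and 0.17), so the replicate numbers were also used to pair hemisphere and vermis. The labels do not state such a pairing, and the block called the pool is the replicate number within a genotype. With the pool as a fixed block 15 genes passed, among them 10 of the 11. As a random block 39 passed, 9 higher and 30 lower, among them all 11. The random block used 1 correlation, 0.36, estimated from both genotypes together. Though computed in another way, it is above those of the same-numbered SmoM2 arrays. Random-block values here and below may thus borrow a stronger pairing than the SmoM2 arrays have, which was not tested. En1 and Nr2f2 passed in each of 12 fits that left out 1 array. The other 9 each lost the call without some SmoM2 array, and none lost it without a wild type array. Without moderation of the variances En1 alone passed (adjusted p = 0.0101), and Nr2f2 (adjusted p = 0.122), Otx2 (0.122) and the others (0.387 to 0.461) did not. With the 6 SmoM2 arrays alone and the pool as a block Nr2f2 alone passed (0.0195), and the other 10 had adjusted p from 0.0609 to 0.242.

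On the whole, the arrays of both regions were alike. Pairs of SmoM2 arrays correlated at 0.9942 to 0.9960 within a region and at 0.9944 to 0.9965 between regions. Over the 12 arrays the log2 median ran from 4.81 to 4.87, the lower quartile from 3.24 to 3.42 and the upper quartile from 6.90 to 7.10. The 3'-to-5' difference of Actb, a measure of RNA integrity, was 0.98 ± 0.11 (SD, n = 3) for hemisphere arrays and 0.96 ± 0.10 for vermis arrays, and 18S rRNA read 11.18 ± 0.30 and 11.23 ± 0.07. In wild type these measures differed between regions. The Actb difference was 0.46 to 0.79 on hemisphere arrays and 0.88 to 0.90 on vermis arrays, and the dap control transcript read 8.06 to 9.77 and 10.03 to 10.66. Wild type hemisphere replicate 3 had the lowest of these values and of the bioB control (7.15). The part of these measures in the wild type values given below, and in those of SmoM2 against wild type, was not tested. Granule lineage and proliferation genes were bright on the 6 SmoM2 arrays, which does not give the share of progenitors in a pool. Atoh1, the factor that keeps progenitors dividing, read 8.65 to 9.10, Neurod1, a granule neuron factor, 12.08 to 12.23 and the proliferation gene Mki67 11.63 to 11.83, all above the upper quartile of every array.

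**Figure D1:**
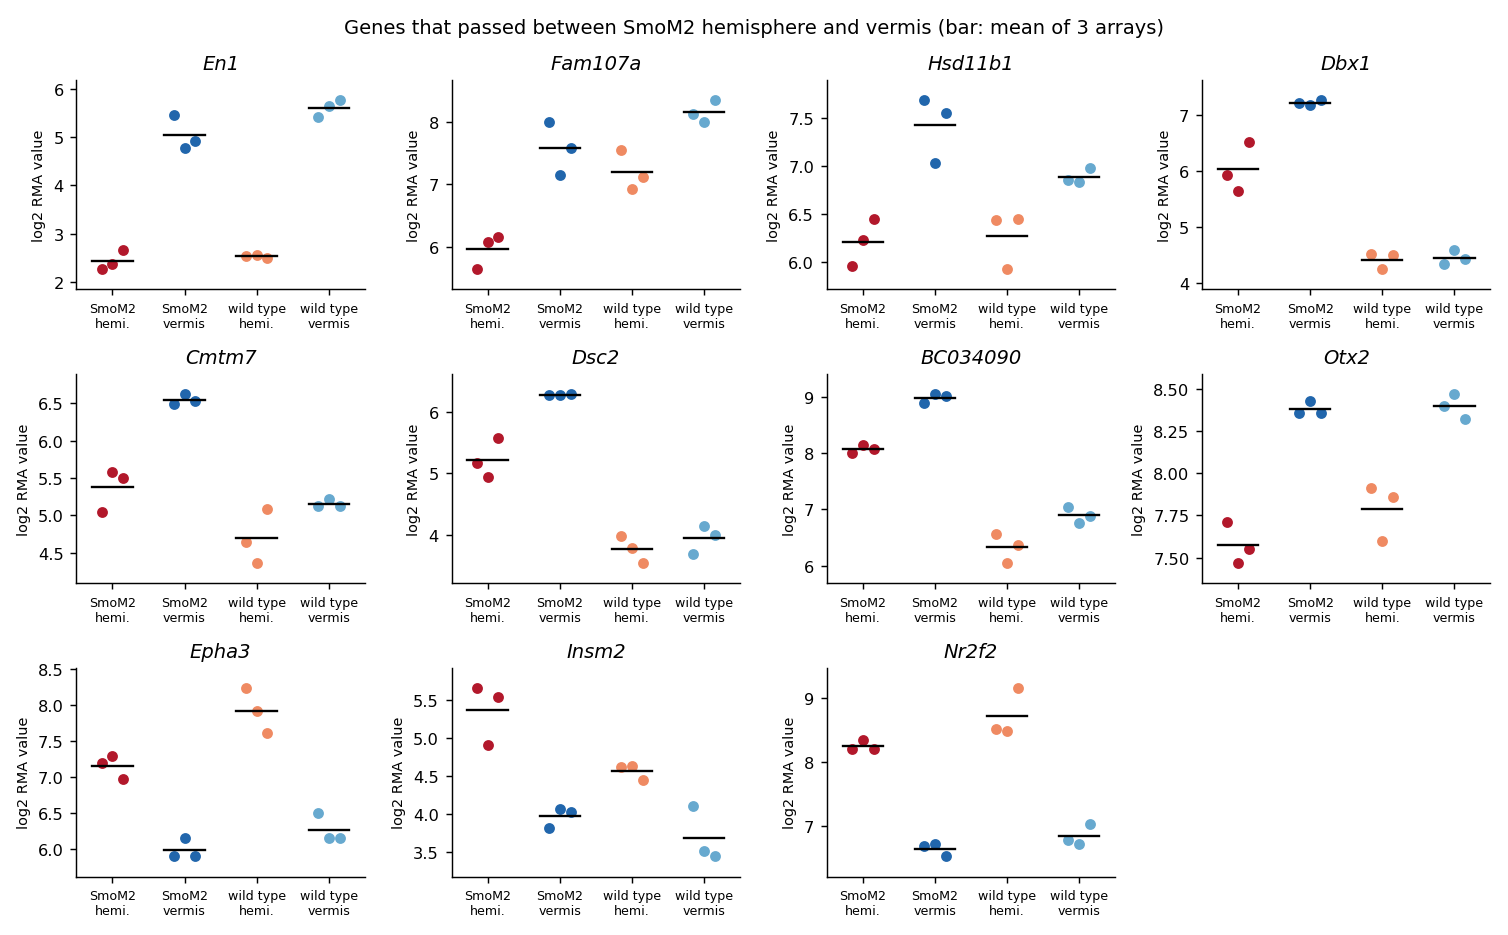
Log2 RMA values of the 11 genes that passed between SmoM2 hemisphere and SmoM2 vermis, with 1 point per array, bars at the mean of 3 arrays and a scale of its own for each gene. In every panel the 3 SmoM2 hemisphere arrays lie on the opposite side of the 3 SmoM2 vermis arrays, and Dbx1 and Dsc2 lie lower in wild type of both regions.

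Among transcription factors of position, En1, Nr2f2 and Otx2 passed, and En1 and Nr2f2 did so without any 1 array. En1, a homeodomain factor of the midbrain and cerebellum, read 2.27, 2.38 and 2.66 in SmoM2 hemisphere and 5.46, 4.78 and 4.91 in SmoM2 vermis. The hemisphere arrays all lay under the lower quartile of every array, so that En1 was near the dim end there and clearly above it in the vermis. The difference was -2.61 ± 0.16 (SE, n = 3 arrays per group; 95% interval -2.96 to -2.27), or 6.13-fold, with adjusted p = 3.07e-06, and RMA compresses differences this close to the dim end. In wild type it was -3.08 (adjusted p = 3.35e-07), with vermis arrays at 5.42 to 5.76. En1 in the vermis was lower in SmoM2 than in wild type by limma (-0.56, adjusted p = 0.0296), while that comparison in the hemisphere gave -0.09 (0.732). Over all genes 14.8% passed between SmoM2 and wild type hemisphere and 17% between SmoM2 and wild type vermis.

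Nr2f2, the orphan nuclear receptor COUP-TFII, read 8.21, 8.34 and 8.21 in SmoM2 hemisphere and 6.70, 6.73 and 6.53 in SmoM2 vermis. The gap between the regions was many times wider than the range within either. The difference was 1.60 ± 0.16 (95% interval 1.26 to 1.93), or 3.03-fold, with adjusted p = 0.000615, and 5 of its 6 probe sets separated the regions. In wild type the difference was 1.87 (adjusted p = 8.59e-05). Its relative Nr2f1, COUP-TFI, read 11.28, 11.13 and 11.21 against 10.72, 10.65 and 10.82. Those arrays did not overlap either, yet its difference of 0.47 ± 0.10 did not pass (adjusted p = 0.246, and 0.0292 with the random block), whereas 0.67 in wild type did (0.0262).

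Otx2, a homeodomain factor with a role in posterior granule progenitors and in some medulloblastomas, read 7.71, 7.47 and 7.55 in SmoM2 hemisphere and 8.36, 8.43 and 8.36 in SmoM2 vermis. The vermis arrays were tightly grouped and above all hemisphere arrays. The difference was -0.81 ± 0.11, or 1.75-fold, with adjusted p = 0.0108, and in wild type it was -0.61 (0.039). Leaving out SmoM2 hemisphere replicate 2 or 3 ended the call (adjusted p = 0.0674 and 0.056), as did leaving out SmoM2 vermis replicate 1, 2 or 3 (0.0572, 0.077 and 0.0657).

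En2, the other engrailed gene, read 9.35, 9.01 and 9.34 in SmoM2 hemisphere and 9.67, 9.68 and 9.83 in SmoM2 vermis. The arrays did not overlap. Its difference of -0.49 ± 0.11 did not pass (adjusted p = 0.268, and 0.0447 with the random block), and -0.64 in wild type did (0.039). Fgf8, the signal of the isthmus, read 4.18, 4.59 and 4.03 against 5.18, 4.98 and 5.07, and its difference of -0.81 ± 0.16 did not pass (adjusted p = 0.173, and 0.027 with the random block). Of 39 measured genes on the list for anterior-posterior and midline patterning, 1 passed as higher in the hemisphere (Nr2f2) and 2 as lower (En1 and Otx2). At an unadjusted p under 0.05 there were 4 higher (1.64% of all genes were) and 7 lower (2% of all genes). The median of the list was -0.007 and that of all genes 0.005. The 20 measured Hox genes lay between -0.15 and 0.29, and 0 passed.

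Among receptors and enzymes, Epha3, a receptor for ephrin-A ligands that guides growing axons, read 7.20, 7.29 and 6.98 in SmoM2 hemisphere and 5.90, 6.16 and 5.90 in SmoM2 vermis. All hemisphere arrays lay above all vermis arrays. The difference was 1.17 ± 0.16, or 2.24-fold, with adjusted p = 0.0108, and 3 of 4 probe sets separated the regions. In wild type it was 1.66 (adjusted p = 0.000266), and Epha3 was lower in SmoM2 than in wild type in the hemisphere (-0.77, adjusted p = 0.00432) and read -0.28 in the vermis (0.224). The regional call was lost without SmoM2 hemisphere replicates 1 and 2 (adjusted p = 0.104 and 0.0698) and SmoM2 vermis replicates 1 and 3 (0.0705 and 0.0657). Of 21 measured Eph receptors and ephrins Epha3 alone passed, and Epha5, a receptor of that class, had a difference of 0.59 (0.682).

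Hsd11b1 makes active glucocorticoid from its inactive form. It read 5.96, 6.23 and 6.45 in SmoM2 hemisphere and 7.68, 7.03 and 7.55 in SmoM2 vermis. The arrays did not overlap, although those of the vermis were spread. The difference was -1.20 ± 0.18, or 2.3-fold, with adjusted p = 0.0188, and -0.61 in wild type did not pass (0.323). The call was lost if SmoM2 hemisphere replicate 1 or 2 was left out (adjusted p = 0.182 and 0.117), if SmoM2 vermis replicate 1 or 3 was (0.15 and 0.0935) and with the SmoM2 arrays alone (0.0576). It was the 1 gene to pass among 24 measured genes of retinoid and hormone handling. Rbp4, a retinol carrier, read 8.70, 8.94 and 8.80 on hemisphere arrays and 9.42, 9.70 and 9.57 on vermis arrays, with no overlap. Its difference of -0.75 ± 0.14 did not pass (adjusted p = 0.123, 0.00996 with the random block and 0.0155 without wild type hemisphere replicate 3).

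Fam107a, an actin-associated protein, read 5.65, 6.08 and 6.16 in SmoM2 hemisphere and 7.99, 7.15 and 7.58 in SmoM2 vermis. All hemisphere arrays lay below all vermis arrays. The difference was -1.61 ± 0.21, or 3.05-fold, with adjusted p = 0.0108. In wild type it was -0.96 (adjusted p = 0.116), and Fam107a was lower in SmoM2 than in wild type in the hemisphere (-1.23, 0.00115). The regional call was lost without SmoM2 hemisphere replicate 1 (adjusted p = 0.0909), SmoM2 vermis replicates 1 and 3 (0.0541 and 0.0657) and with the mean of its 3 probe sets (0.109), of which 2 separated the regions.

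Insm2, a zinc finger factor of the insulinoma-associated family, read 5.66, 4.91 and 5.54 in SmoM2 hemisphere and 3.82, 4.07 and 4.02 in SmoM2 vermis. It was higher in every hemisphere array. The difference was 1.39 ± 0.19, or 2.63-fold, with adjusted p = 0.0117, and in wild type it was 0.88 (0.127). The call was lost without SmoM2 hemisphere replicates 1 and 3 (adjusted p = 0.108 and 0.0743), SmoM2 vermis replicates 1, 2 and 3 (0.0909, 0.068 and 0.0657) and with the mean of its 3 probe sets (0.397), of which 1 separated the regions.

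For 4 of the 11 genes that passed between SmoM2 regions (Dbx1, Dsc2, Cmtm7 and BC034090) SmoM2 also passed as higher than wild type in each region. Over all genes 14.8% passed between SmoM2 and wild type in the hemisphere and 17% in the vermis, in either direction. The share of all genes higher in both regions was not counted, so the 4 cannot be set against it. These comparisons share their SmoM2 arrays with the regional one, so their values stand side by side and support nothing about each other. Dbx1, a homeodomain factor of interneuron progenitors in the ventral spinal cord and hindbrain, read 5.94, 5.65 and 6.52 in SmoM2 hemisphere and 7.23, 7.18 and 7.27 in SmoM2 vermis. In wild type all 6 arrays lay between 4.26 and 4.59, so the SmoM2 arrays were above them in both regions and highest in the vermis. The regional difference was -1.19 ± 0.17, or 2.29-fold, with adjusted p = 0.0128 in SmoM2, and -0.03 (0.999) in wild type. SmoM2 minus wild type was 1.61 for hemisphere arrays (adjusted p = 2.02e-05) and 2.77 for vermis arrays (9.41e-08).

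The test of the difference between genotypes gave -1.17 for Dbx1, with an unadjusted p = 0.000269 and an adjusted p of 1 in limma, and without SmoM2 hemisphere replicate 3 it gave an adjusted p = 0.0372. The regional call of Dbx1 ended when SmoM2 hemisphere replicate 1 or 2 was left out (adjusted p = 0.129 and 0.0674), when SmoM2 vermis replicate 1, 2 or 3 was (0.0909, 0.0845 and 0.0757) and with the SmoM2 arrays alone (0.0798).

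Dsc2, a desmosomal cadherin, read 5.17, 4.94 and 5.57 in SmoM2 hemisphere and 6.27, 6.27 and 6.29 in SmoM2 vermis. The vermis arrays were almost equal. The difference was -1.05 ± 0.16, or 2.07-fold, with adjusted p = 0.0216, against -0.17 in wild type (0.988), and SmoM2 minus wild type was 1.45 for hemisphere arrays (adjusted p = 2.9e-05) and 2.33 for vermis arrays (2.95e-07). Its call ended when SmoM2 hemisphere replicate 1 or 2 was left out (adjusted p = 0.182 and 0.152), when SmoM2 vermis replicate 1, 2 or 3 was (0.142, 0.129 and 0.0899), with the fixed block (0.0613) and with the mean of its probe sets (0.318). Of 23 measured genes on the list of cadherins and protocadherins, which did not hold Dsc2, 0 passed by limma and 1 had an unadjusted p under 0.05.

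Cmtm7, a membrane protein of the MARVEL family, read 5.05, 5.58 and 5.50 in SmoM2 hemisphere and 6.49, 6.62 and 6.53 in SmoM2 vermis. The difference was -1.17 ± 0.16, or 2.26-fold, with adjusted p = 0.0117, and in wild type it was -0.46 (0.562). SmoM2 minus wild type was 0.68 for hemisphere arrays (adjusted p = 0.0131) and 1.40 for vermis arrays (5.04e-05). It lost the call without SmoM2 hemisphere replicate 1 (adjusted p = 0.107) and SmoM2 vermis replicates 1, 2 and 3 (0.0705, 0.0883 and 0.0657). BC034090 read 8.01, 8.15 and 8.07 against 8.89, 9.05 and 9.02. Its arrays were tight in both regions. The difference was -0.91 ± 0.13, or 1.88-fold, with adjusted p = 0.0117, against -0.57 in wild type (0.136), and SmoM2 minus wild type was 1.75 and 2.10 (5.78e-07 and 8.11e-08). It lost the call without any single SmoM2 array, with adjusted p = 0.108, 0.0673 and 0.0629 for hemisphere replicates 1, 2 and 3 and 0.0572, 0.0883 and 0.0657 for vermis replicates 1, 2 and 3.

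Foxa2, the forkhead factor that marks floor plate, had the same order of groups but did not pass between regions. It read 6.72, 7.06 and 6.90 in SmoM2 hemisphere and 8.12, 8.13 and 7.88 in SmoM2 vermis, while the 6 wild type arrays lay between 3.56 and 4.63. The SmoM2 arrays of the regions did not overlap. The difference was -1.15 ± 0.24 (adjusted p = 0.19), and it was 0.01 in wild type. Its adjusted p was 0.0473 with the random block, 0.0112 with the SmoM2 arrays alone and 0.0134 without wild type vermis replicate 1.

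**Figure D2:**
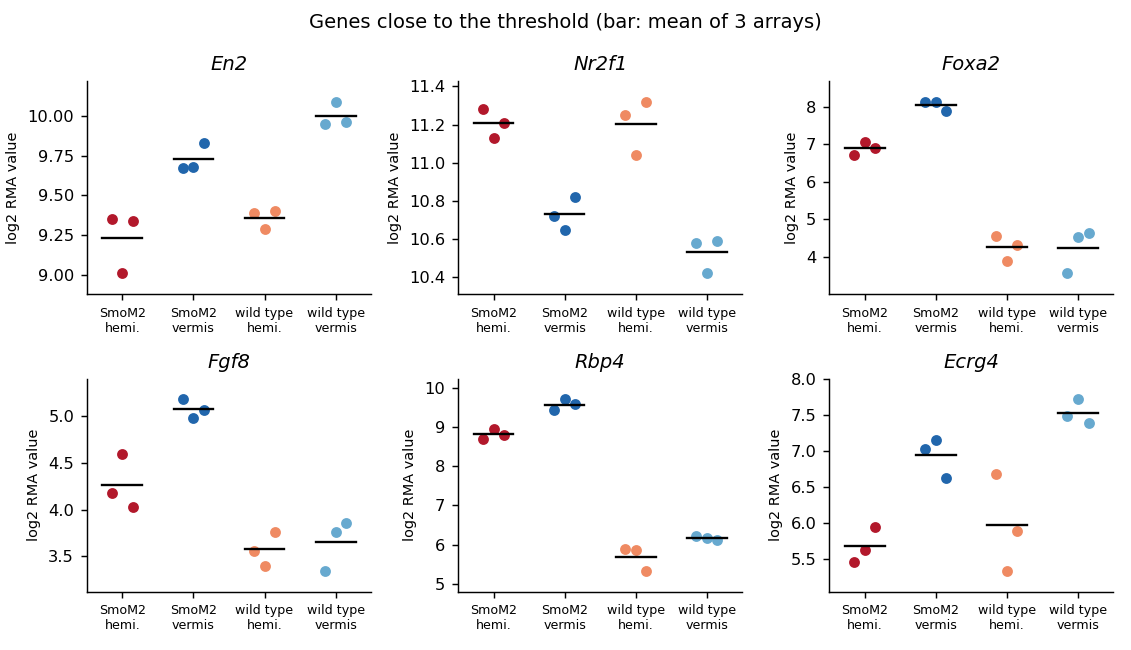
Log2 RMA values of 6 genes that did not pass between SmoM2 hemisphere and SmoM2 vermis, with 1 point per array, bars at the mean of 3 arrays and a scale of its own for each gene. The SmoM2 arrays of the regions do not overlap in any panel, and Foxa2, Fgf8 and Rbp4 have higher means in SmoM2 than in wild type of both regions.

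The 19 genes with the next smallest p, among them Fgf8, Rbp4 and Foxa2, had adjusted p from 0.0717 to 0.228 by limma. Their SmoM2 arrays did not overlap between regions (10.7% of all genes). They were chosen by p on these same arrays, so the lack of overlap adds no support. Of the 19, 17 were lower in the hemisphere array by array. The 2 higher were Celsr1, an atypical cadherin of planar cell polarity (0.63), and Mroh2a (0.53). With the fixed block 4 of the 19 passed (Thsd4, Thrsp, Maob and Zfhx4, adjusted p = 0.046, 0.0448, 0.0299 and 0.0448), and with the random block all 19 did. Of the 19, 10 passed in at least 1 of the fits that left out an array. Ecrg4, a secreted peptide abundant in choroid plexus and ependyma, read 5.46, 5.63 and 5.95 in SmoM2 hemisphere and 7.03, 7.16 and 6.63 in SmoM2 vermis. Its difference was -1.26 ± 0.26 (adjusted p = 0.19, 0.0447 with the random block, and 0.013 and 0.0388 without wild type hemisphere replicates 1 and 2), and in wild type it passed at -1.57 (0.0338). Maob, a monoamine oxidase, had -0.95 (adjusted p = 0.147), Thrsp, a regulator of lipid synthesis, -0.82 (0.123) and Mmp2, a matrix metalloproteinase, -0.58 (0.203).

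**Figure D3:**
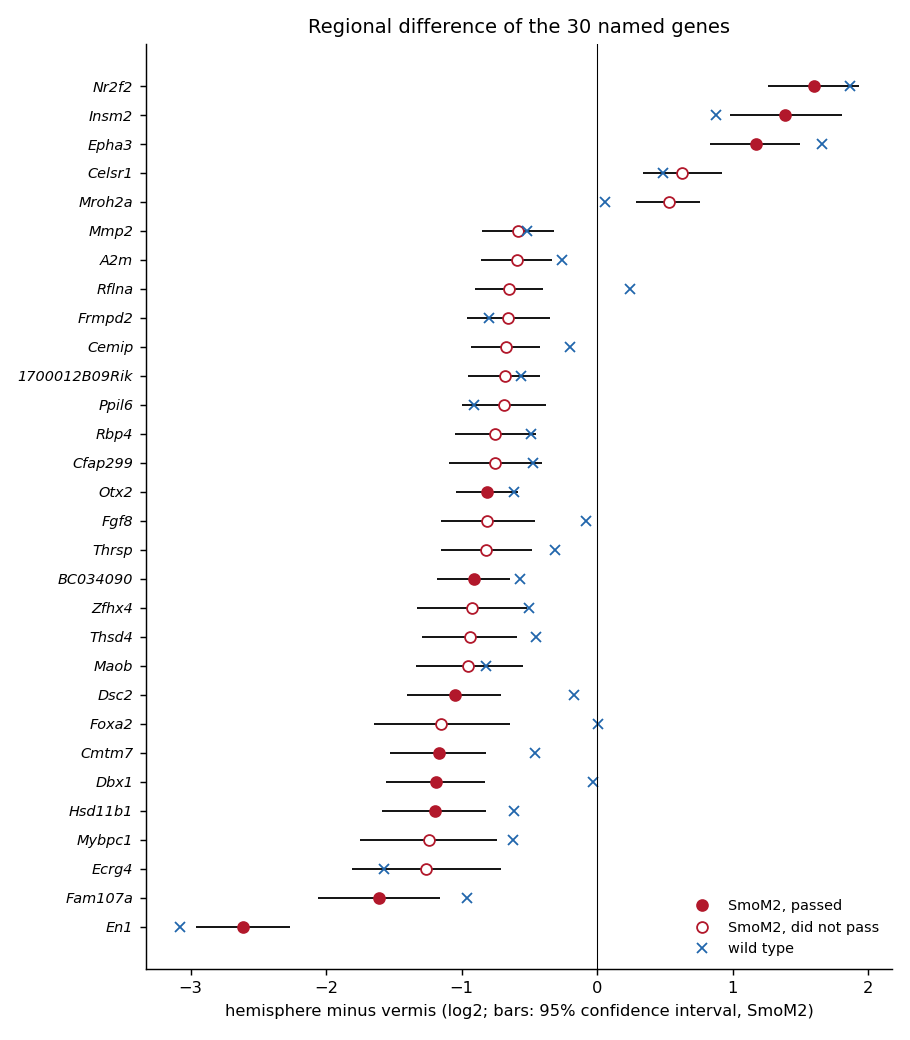
Hemisphere minus vermis on the log2 scale for the 11 genes that passed in SmoM2 and the 19 with the next smallest p. Circles with 95% intervals are SmoM2 (filled where the gene passed) and crosses are wild type; 25 of the 30 genes lie below 0 in SmoM2, and 28 have the same sign in wild type.

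Hedgehog target genes were at similar levels in both SmoM2 regions. Ptch1 read 12.37, 12.38 and 12.30 on hemisphere arrays and 12.34, 12.48 and 12.42 on vermis arrays, a difference of -0.06 (95% interval -0.29 to 0.16). Gli1 read 8.87, 8.88 and 8.69 against 8.55, 8.81 and 8.61, a difference of 0.16 (-0.16 to 0.47). For both genes the arrays of the regions overlapped. Hhip, which binds hedgehog ligand, had a difference of -0.03 (95% interval -0.52 to 0.46), the G1 cyclin Ccnd1 0.06 (-0.26 to 0.37) and the proto-oncogene Mycn -0.07 (-0.36 to 0.23). All 5 intervals included 0 and excluded a 2-fold difference. Of 10 measured targets 0 passed by limma and 0 had an unadjusted p under 0.05, with differences from -0.08 to 0.20 and a median of 0.009 (all genes 0.005). Of 21 measured genes of hedgehog transduction 0 passed and 0 had an unadjusted p under 0.05 (range -0.37 to 0.29), and Smo, whose probe sets were not shown to read the SmoM2 allele, had 0.16 (-0.06 to 0.38).

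Cell cycle and lineage genes had small differences, none of which passed. The 30 measured genes of DNA replication and G1/S lay between -0.09 and 0.19 with a median of 0.065. Of these 24 were above 0 (9471 of all 18194 genes were), and 5 had hemisphere arrays all above vermis arrays (5.64% of all genes did). In wild type 7 had hemisphere arrays all above vermis arrays (740 of all 18194 genes did). The 28 of mitosis lay between -0.06 and 0.09, and Mki67 had 0.07 (95% interval -0.14 to 0.29). Of each list 0 passed by limma and 0 had an unadjusted p under 0.05. Atoh1 read 9.09, 8.75 and 9.10 in SmoM2 hemisphere and 8.67, 8.65 and 8.80 in SmoM2 vermis. The arrays overlapped, and its difference of 0.27 (0.01 to 0.53) did not pass (adjusted p = 1). It was the 1 gene of 14 on the progenitor identity list with an unadjusted p under 0.05, and the others, among them the Zic factors, Pax6 and Sox2, lay between -0.17 and 0.15. Of 31 genes of granule neuron differentiation 0 passed by limma and 0 had an unadjusted p under 0.05, with a median of 0.003; Neurod1 had -0.07 (-0.26 to 0.13) and the adhesion molecule Cntn2 -0.09 (-0.41 to 0.23).

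Signalling lists gave no calls by limma in the fit without the block. Of 20 measured Notch pathway genes 0 passed and 2 had an unadjusted p under 0.05, both higher in the hemisphere. They were the ligand Dll3 (0.27, adjusted p = 1) and the fringe gene Mfng (0.33). Of 33 Wnt genes 0 passed and 1 had an unadjusted p under 0.05, the secreted Wnt modulator Sfrp2 (0.58, adjusted p = 0.819), which passed with the fixed block (0.0465). Of 28 BMP genes 0 passed and 1 had such a p, and of 31 growth factor genes 0 and 2. The lists numbered 32, with 572 of 613 genes measured, and 4 of them held a gene that passed. Of 27 immediate early and stress genes, which respond to cell handling, 0 passed and 4 were above 0. By limma 4 had an unadjusted p under 0.05, all lower in the hemisphere (2% of all genes). In 6 the arrays of the regions did not overlap, all lower in the hemisphere (5.09% of all genes). Their median was -0.142, and -0.257 in wild type. The part of cell handling in the regional differences was not tested. Hspa1a, a heat shock protein, had -0.68 (adjusted p = 0.742).

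**Figure D4:**
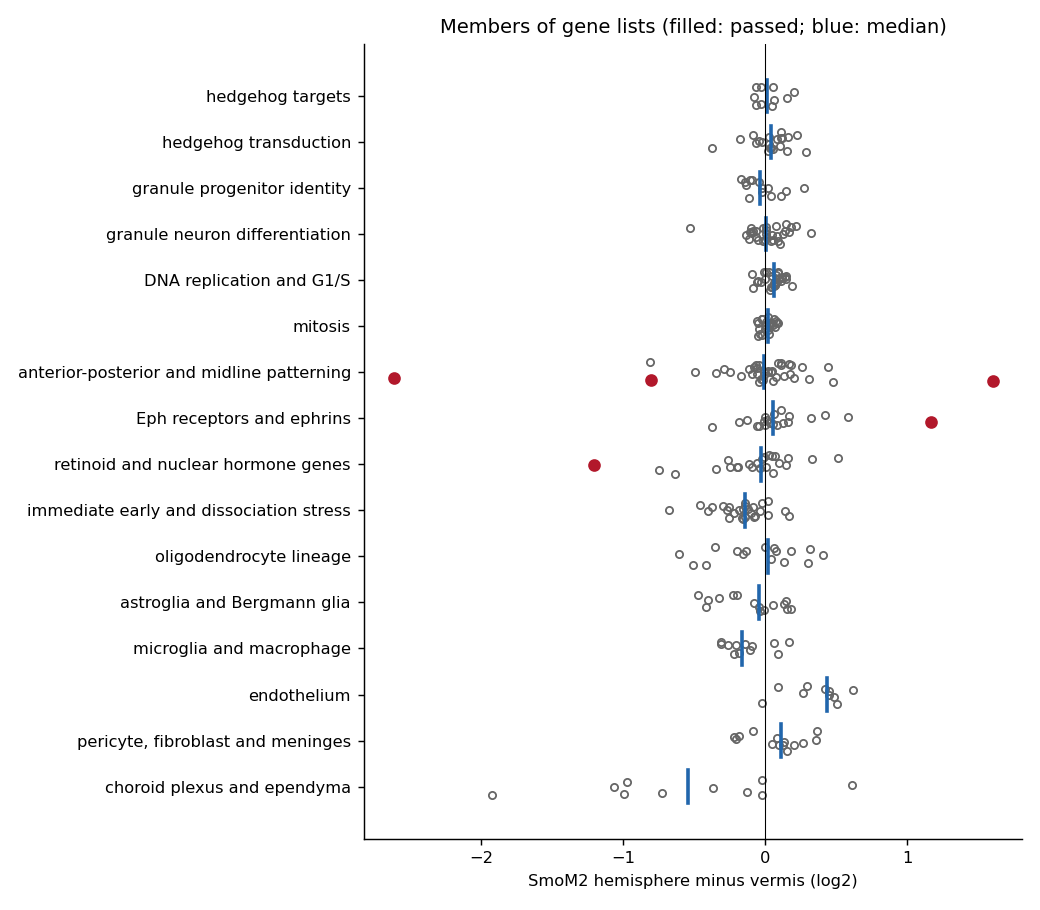
Hemisphere minus vermis in SmoM2 on the log2 scale for the measured members of 16 gene lists, with 1 point per gene (jittered vertically), filled where the gene passed, and a blue line at the list median. Hedgehog and cell cycle genes lie close to 0, while endothelial genes have a median of 0.433 and choroid plexus and ependymal genes one of -0.545.

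Of the marker lists for cell types, 3 stood away from 0 or held a gene that passed. In bulk samples fewer cells of a type and less RNA per cell cannot be told apart. Endothelial genes, which mark blood vessels, had a median of 0.433 over 10 measured, 7 of them with no overlap between regions and higher in the hemisphere (background 5.64%), 2 with an unadjusted p under 0.05 and 0 that passed by limma. Tek, a receptor for angiopoietins, read 5.63, 6.05 and 5.81 in SmoM2 hemisphere and 4.63, 5.46 and 5.55 in SmoM2 vermis, a difference of 0.61 (0.10 to 1.13, adjusted p = 1). The summed level of the list was 10.38 to 10.49 for hemisphere arrays and 9.95 to 10.32 for vermis arrays. In wild type the median was -0.254.

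On the list for unipolar brush cells and rhombic lip, the latter also the source of granule progenitors, Otx2 passed as lower. By limma 3 of 6 measured genes had an unadjusted p under 0.05, 1 higher in the hemisphere and 2 lower. Eomes, a factor of unipolar brush cells, read 5.68, 5.83 and 5.40 in SmoM2 hemisphere and 6.47, 6.10 and 5.76 in SmoM2 vermis, a difference of -0.47 (adjusted p = 1). Its arrays overlapped. The summed level was 9.83 to 9.92 for hemisphere arrays and 10.03 to 10.12 for vermis arrays, without overlap. This sum counts Otx2 itself, so it is no separate measure of these cells, and no sum was made without Otx2. The median difference was 0.021, with 3 of the 6 genes above 0, and Lmx1a was under every array's lower quartile. The part of these cells in the difference of Otx2 was not tested.

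Choroid plexus and ependymal genes had a median of -0.545 over 10 measured. Of these, 5 were without overlap and lower in the hemisphere (background 5.09%) and 1 higher. By limma 0 passed and 6 had an unadjusted p under 0.05 (3.63% of all genes). In wild type the median of this list was -0.405, and 2 of its genes passed, both lower in the hemisphere. The gene Ccdc153, expressed in ciliated ependyma, read 4.77, 4.98 and 4.79 in SmoM2 hemisphere and 6.06, 6.17 and 5.49 in SmoM2 vermis, a difference of -1.06 (-1.70 to -0.42, adjusted p = 0.689). Ttr, the abundant choroid plexus protein, which was picked after its values were seen, read 5.97, 5.79 and 6.60 against 8.21, 8.76 and 7.15. Its arrays did not overlap, but its interval was wide (-4.61 to 0.77), and wild type hemisphere replicate 1 read 11.85 and the other wild type hemisphere arrays 4.90 and 5.17. The summed level was 8.72 to 8.90 for hemisphere arrays and 8.89 to 9.87 for vermis arrays, which overlap, and Kl, on this list, was under every array's lower quartile. Clic6 went the other way (0.61). The part of these cells in Ecrg4 and in the genes that passed was not tested. Oligodendrocyte genes had a median of 0.018, astroglial genes -0.045 and microglial genes -0.163. By limma 0 passed in each, and 4 of 16, 1 of 15 and 0 of 12 had an unadjusted p under 0.05 (3.63% of all genes). Of the 4 oligodendrocyte genes, 1 was higher in the hemisphere and 3 lower. In wild type the median of the oligodendrocyte list was -0.473.

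Regional differences had the same sign in wild type for all 11 genes, and these arrays share nothing with the SmoM2 ones. In wild type 34 genes passed (0.187%), and 4 passed in both genotypes (En1, Nr2f2, Epha3 and Otx2), which is 36.4% of the SmoM2 list and 11.8% of the wild type list. Of the 34, all had the same sign in SmoM2, against 53.1% of all genes with the same sign in both genotypes. Genes can vary together, so the 34 are not separate agreements. Among them are Ccdc153 and Tmem212 of the choroid plexus and ependymal list, and Ecrg4. Between SmoM2 regions 27 of the 34 did not overlap, in the same direction as in wild type (10.7% of all genes did not overlap, either way). By limma 26 had an unadjusted p under 0.05 in SmoM2 (3.63% of all genes). The wild type count was unstable. It was 3 with the wild type arrays alone, 5 without moderation, 49 with the fixed block (23 of the 34 among them) and 198 with the random block. Leaving out wild type hemisphere replicate 1, 2 or 3 gave 58, 9 and 26, without wild type vermis replicates 1, 2 and 3 it was 19, 8 and 9, without SmoM2 hemisphere replicates 14, 14 and 10, and without those of SmoM2 vermis 10, 16 and 26. The wild type calls of En1, Nr2f2 and Epha3 held in all 12 fits without 1 array (highest adjusted p = 9.48e-06, 0.00135 and 0.00377). Those of Otx2, En2, Nr2f1 and Ecrg4 held in 1, 3, 6 and 3 of them (highest adjusted p = 0.216, 0.209, 0.141 and 0.188). The number of genes passing in both genotypes, and both shares, move with these counts: it was 3 with the arrays of each genotype alone, 1 without moderation, 5 with the fixed block and 16 with the random block.

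The differences correlated at r = 0.286 across 18194 genes, which are not independent replicates. The 34 were chosen by their wild type values, and 33 of them were smaller in SmoM2; of the 11 chosen in SmoM2, 8 were smaller in wild type.

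A difference between the genotypes in the regional effect was tested for every gene. By limma 0 of 18194 passed (smallest adjusted p = 1), 564 had an unadjusted p under 0.05 (3.1%), and 0 passed with either block, with array quality weights or without moderation. Without SmoM2 hemisphere replicate 3, Dbx1 alone passed (adjusted p = 0.0372). Among the genes with the smallest p, Rflna, an actin-binding regulator, had -0.65 in SmoM2 and 0.24 in wild type, Lfng, a Notch modulator, -0.17 and 0.58, and Adipoq, the hormone adiponectin, -0.09 and -0.96. So 7 of the 11 genes passed in SmoM2 and not in wild type, but their regional effect was not shown to differ between the genotypes.

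**Figure D5:**
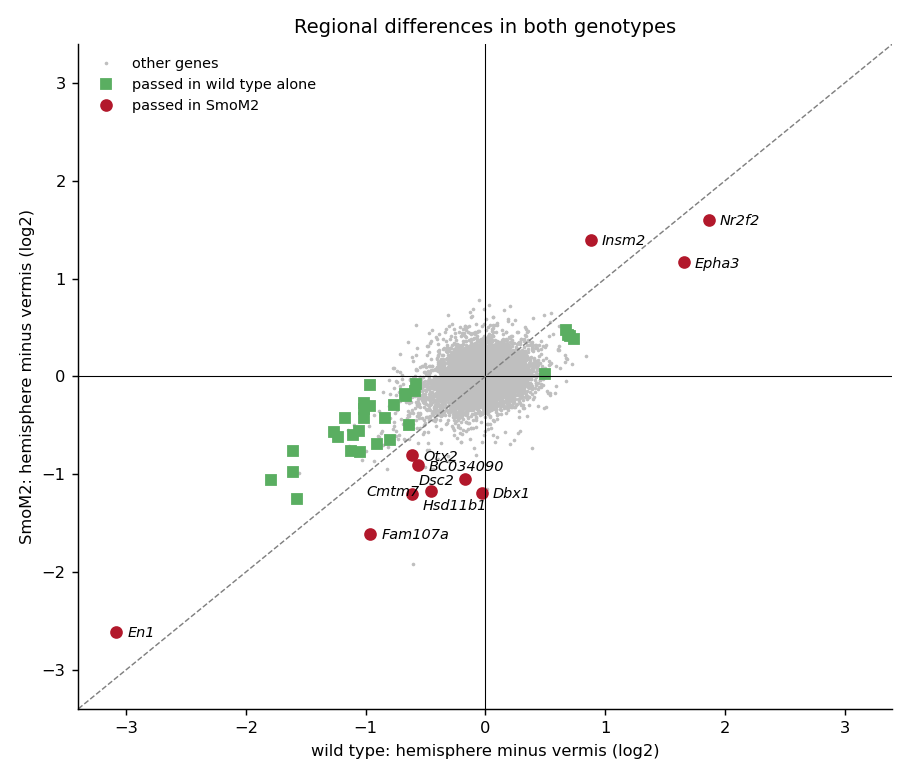
Hemisphere minus vermis on the log2 scale in wild type (horizontal) and SmoM2 (vertical) for 18194 genes, with 1 point per gene and a dashed line of equal difference. Circles passed in SmoM2 and squares in wild type alone; En1, Nr2f2 and Epha3 lie far from 0 in both genotypes, and Dbx1 and Dsc2 lie close to 0 in wild type alone.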

How the data were processed

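RNA of 12 pools was read on Affymetrix 3' expression arrays, per the labels' protocols. The deposited log2 values, 1 per probe set, were made by the authors with Partek and RMA, per the submitters' processing notes; the sources used here give no versions or further filters. RMA gives no detection call. Of 45101 probe sets, 34958 had 1 gene symbol in the platform annotation, and each of 18194 genes was read by its brightest probe set (mean of 12 arrays). Groups came from the titles. Differences were tested, two-sided, with limma 3.58.1 (R 4.3.3) in 1 model with a mean for each of 4 groups (8 residual degrees of freedom), adjusted by Benjamini-Hochberg over all 18194 genes, and intervals are 95% intervals of that fit. The fit was first run on simulated data with noise drawn separately for each array. That setting does not cover same-numbered arrays that vary together. With 3 arrays per group precision is limited, and nothing beyond the pools of 5 mice says how separate the replicates are, so p-values measure the spread between these pools.

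Named genes were those that passed, with no overlap between the arrays of the regions, then those with the smallest p up to 30, plus the genes that passed and up to 4 with the smallest p of each gene list, 15 hedgehog, lineage and regional genes, and 10 of the interaction; not all are printed. The gene lists and the comparison were chosen with earlier results of these data known. The replicate numbers were used to pair the arrays in some fits. Same-numbered SmoM2 arrays correlated at 0.14, 0.27 and 0.17 in their deviations from group means, and wild type ones at 0.53, 0.34 and 0.51. The labels do not state a pairing or that same-numbered arrays share a pool, and what same-numbered arrays share was not tested. Alternatives were the pool as a block, the arrays of 1 genotype alone, another scaling, brighter genes alone, other probe set rules, other moderation, array weights and leaving out each array. Promoter letters are from RefSeq, and a motif was searched on both strands.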

Additional observations from a re-analysis of the deposited data

How the results depend on the processing

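The 11 genes that passed between SmoM2 regions kept their direction under other scaling, the mean of all probe sets and array quality weights. The other alternatives could not turn a sign. Most left the difference itself unchanged, and without 1 SmoM2 array the regions still did not overlap. With brighter genes alone En1, Dbx1, Dsc2, Cmtm7 and Insm2 were not tested. The number of genes that passed was 11 with each array centred on its median or with all probe sets tested separately. It was 12 after renewed quantile normalization, 10 with the mean of all probe sets, 14 with trended and robust moderation, and 15 with the SmoM2 arrays alone. With the replicate numbers as a pairing it was 15 (pool as a fixed block), 39 (random block) and 1 (SmoM2 arrays alone with the block). It was 6 with brighter genes alone, the 6 of the 11 that were among the 9097 genes tested. It was 1 without moderation and 42 with array quality weights; the cause was not tested. Leaving out an array gave 2 to 18.

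The wild type count of 34 became 198 with the random block, 3 with the wild type arrays alone, 90 with these and the block, 21 with brighter genes alone, 17 with all probe sets tested separately, 5 without moderation and 15 with array quality weights; leaving out an array gave 8 to 58. The interaction count was 0, and 0 to 1 when an array was left out. Differences near 0 turned sign for Ptch1 (0.0699 with the mean of all probe sets), Hhip (0.0059 and 0.0147 without SmoM2 hemisphere or vermis replicate 2, range -0.0847 to 0.0147 over the fits without 1 array) and Ccnd1 (-0.0058 with array weights, -0.0075 without SmoM2 hemisphere replicate 2 and -0.0164 without SmoM2 vermis replicate 3, range -0.0164 to 0.1624). Signal near the dim end limits the sizes of En1 in the hemisphere.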

Other observations

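Probe sets without a single gene symbol were left out above. When all 45037 probe sets other than controls were tested with limma, 15 passed between SmoM2 regions, and 0 of the 10092 without a single symbol did.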
